A study of Mus musculus with 8 samples.

Results

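The genes examined were 38 genes of the Lgr5 stem cell signature of the mouse intestine and of the targets and feedback regulators of Wnt signalling. They were taken from a list of names, and each was measured by 1 probe, the brightest of its probes that stood well above background on 4 or more of the 8 arrays. Of the 21368 gene symbols on the array, 15110 were measured by this rule. Of the 38 genes, 37 had a named probe and 34 were measured, and all 34 were well above background on all 8 arrays. No probe was named Olfm4, a secreted glycoprotein often used as a stem cell marker, so it was not analysed here. Lef1, Apcdd1 and Wif1 had probes that were too dim to be kept.

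The study profiled intestinal stem cells sorted for high Lgr5 signal on 1-colour arrays, with 4 samples labelled Irf2_AhcKO and 4 control samples. The Irf2_AhcKO mice carried floxed Irf2 alleles, the Ah-Cre transgene and the Lgr5-EGFP-Ires-CreERT2 allele, and the control mice carried the same floxed and Lgr5 alleles without Ah-Cre. All 8 samples came from mice that had received β-naphthoflavone on 5 consecutive days, and cells were taken 1 month later. The labels used here give no age. The design text speaks both of 4 independent mice and of 2 biological replicates. P-values here rest on the spread of these samples within group and array slide, with the samples taken as independent. Ah-Cre is a recombinase under a promoter that aryl hydrocarbon receptor ligands such as β-naphthoflavone switch on, and it is not restricted to stem cells. The Lgr5 reporter allele interrupts the copy of Lgr5 that carries it, in both groups alike, and the labels do not say whether the other copy was intact.

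In the crypt, Wnt ligands bind Frizzled and LRP receptors, β-catenin escapes the destruction complex, and with TCF/LEF factors it switches on target genes. R-spondins bind Lgr5 and its relatives and keep Frizzled receptors on the surface by holding off the ubiquitin ligases Rnf43 and Znrf3. Lgr5-positive cells at the crypt base depend on this signal and carry a set of transcripts known as the stem cell signature, some of which, such as Ascl2, Axin2 and Lgr5 itself, are Wnt targets.

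Each slide held 2 Irf2_AhcKO and 2 control arrays, with replicates 1 and 2 on slide 1 and replicates 3 and 4 on slide 2. On each array 61.4% to 69.8% of spots stood well above background, and 0 spots were saturated. In the scanner output, the names of control replicates 3 and 4 mention Ah-Cre, although the labels place both in the control group. The Irf2 probe had log2 signals of 1.12, 1.1, 0.70 and 0.73 on the arrays labelled Irf2_AhcKO, against 0.99, 0.55, 0.37 and 0.64 on the control arrays, where log2 signal means the log2 intensity minus the array's 75th percentile. It was thus not lower on the arrays labelled Irf2_AhcKO (log2 difference 0.27, SE 0.12, limma adjusted p = 0.429), and since the position of the probe relative to the floxed exon is not given, this checks nothing about the labels. Of 9 markers set for Lgr5 stem cells, all 8 that had a probe were well above background on every array. Of 10 enterocyte markers, 9 had a lower mean on the Irf2_AhcKO arrays, 8 of them at an unadjusted p below 0.05 and none past the adjusted threshold. The mean log2 signal of that list lay between -0.73 and -0.30 on the Irf2_AhcKO arrays and between 0.06 and 1.00 on the control arrays. On control replicate 4 it was raised by the probe of Sis, chosen here after its values were seen, with a log2 signal of 10.42 against -2.62 to -0.79 on the other arrays. All 6 measured tuft cell markers had a higher mean in Irf2_AhcKO, 3 of them at an unadjusted p below 0.05. The tuft list means were -1.09 to 0.17 in Irf2_AhcKO against -1.29 to -0.86 in control. Of 6 mesenchymal markers 3 were measured, of which only 1 was well above background on all 8 arrays. Col3a1 was so on 2 arrays of each group and Vim on 2 Irf2_AhcKO and 4 control arrays. The mean of the 3 markers was -1.97 on control replicate 1 against -3.44 to -3.09 on the other control arrays. Most of that gap came from Col3a1, chosen after its values were seen, at -0.87 on control replicate 1 against -4.72 to -3.51 on the other controls, whereas Vim was lower there than on control replicates 3 and 4. The 7 goblet cell markers all had a lower mean in Irf2_AhcKO (median log2 difference -0.16) and the 9 proliferation markers all a higher one (0.07). Of 8 enteroendocrine markers, 6 had a higher mean (0.30). An unadjusted limma p below 0.05 was found for 1 lower goblet, 1 higher proliferation and 2 higher enteroendocrine markers. Of the pan-epithelial markers 3 had a higher and 4 a lower mean, and of the measured Paneth markers 3 and 2. For measured leukocyte markers the numbers were 5 and 3, and for endothelial ones 1 and 2. By the same unadjusted rule, 1 pan-epithelial marker was lower, and 1 marker each of the Paneth, leukocyte and endothelial lists was higher. None of the markers of these lists passed the adjusted threshold. Of all 25403 features tested, 50.5% were lower in Irf2_AhcKO. At an unadjusted p below 0.05, 5.74% of all features were lower and 5.98% higher. In bulk samples, fewer cells of a type and less RNA per cell cannot be told apart.

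None of the 34 measured genes passed the threshold between Irf2_AhcKO and control stem cells, which was a limma adjusted p below 0.05 over all 25403 features tested. The threshold was passed by 25 of those features, or 0.0984% (0.0551% higher and 0.0433% lower in Irf2_AhcKO). The signature genes Smoc2, Prom1, Sox9, Cdca7 and Slc12a2 and the Wnt feedback genes Axin2, Rnf43, Znrf3 and Notum had log2 differences between -0.22 and 0.08. Nkd1, the other measured feedback gene, had -0.24 on the probe used and 0.85 on a dimmer kept one. The genes furthest below control were Gkn3, Slc14a1, Nrn1, Ascl2 and Scn2b, and the one furthest above was Tnfrsf19.

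Of the 34 genes, 13 had a positive and 21 a negative log2 difference, where a negative difference means lower in Irf2_AhcKO. Over all features, 50.5% had a negative one, and among the 15110 features with a symbol 8356 did. The median log2 difference of the 34 genes was -0.03, against 0 over all features and -0.02 over those with a symbol. Without regard to sign, the median size of the difference was 0.09 against 0.13 over all features, and the median SE was 0.12 against 0.13. An unadjusted p below 0.05 was found for 3 of the 34, Gkn3, Scn2b and Slc14a1, all lower, while 5.74% of all features were lower and 5.98% higher by that rule. In none of the 34 were the 4 Irf2_AhcKO values all above or all below the 4 control values, which was so in 3.85% of all features. The lowest adjusted p was 0.163, for Gkn3. With control replicates 3 and 4 left out together, an alternative chosen after the data were seen, none of the 34 passed and 5 had an unadjusted p below 0.05. The slide 2 arrays then have no control beside them, so each difference is that of slide 1, as given for the single genes.

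**Figure D1:**
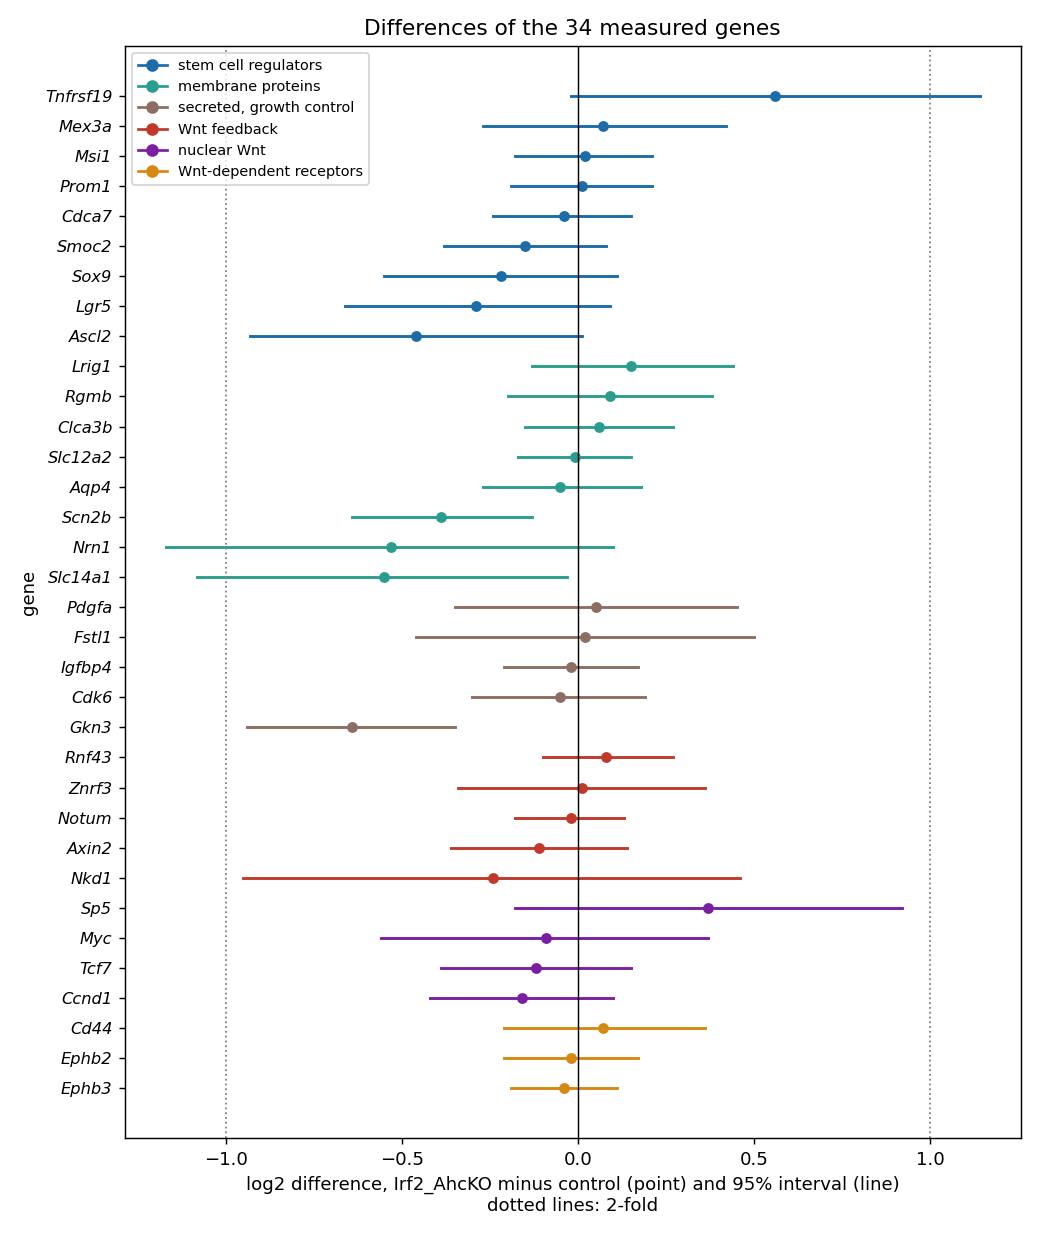
Log2 difference between Irf2_AhcKO and control (x axis, Irf2_AhcKO minus control) of the 34 measured genes (y axis), coloured by role, with the 95% interval from limma as a line and dotted lines at a 2-fold difference. Of the 34 intervals, 31 lie inside the 2-fold lines, and those of Tnfrsf19, Slc14a1 and Nrn1 reach past them.

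With the 8 samples taken as independent, the intervals bounded how far most of these genes could differ on the probe used. The 95% interval of the log2 difference lay wholly inside a 2-fold difference in either direction for 31 of the 34 genes (91.2%, against 88.3% of all features), and inside a 1.5-fold difference for 25 (73.5%, against 66.5%). The 3 genes whose interval reached past 2-fold were Tnfrsf19, Slc14a1 and Nrn1. These intervals are not adjusted for the number of genes. The design text also speaks of 2 biological replicates, for which they make no allowance. Nkd1 is among the 31 by the probe used, while its dimmer kept probe gave a log2 difference of 0.85.

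Among the receptor and core regulators of the stem cell, 9 of 10 were measured, 4 with a positive and 5 with a negative difference, and none passed. Lgr5, the R-spondin receptor by whose reporter the cells were sorted, had log2 signals of 2.34, 2.95, 3.34 and 2.89 in Irf2_AhcKO, against 2.97, 2.99, 3.46 and 3.25 in control. The groups overlapped, and the lowest value was Irf2_AhcKO replicate 1. The log2 difference was -0.29 (SE 0.16, 95% interval -0.66 to 0.09, limma adjusted p = 0.502). Slide 1 gave -0.33 and slide 2 gave -0.24. The cells were sorted on the reporter of this same gene, and how far the gate bears on this level was not tested.

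Ascl2, a transcription factor that sets stem cell fate in the crypt, had log2 signals of 0.67, 1.14, 1.14 and 0.97 in Irf2_AhcKO, against 1.54, 1.97, 1.13 and 1.11 in control. Both control arrays of slide 1 stood above all 4 Irf2_AhcKO arrays, while those of slide 2 lay among them. For Ascl2 the log2 difference was -0.46 (SE 0.20, 95% interval -0.93 to 0.01, adjusted p = 0.433), made up of -0.85 on slide 1 and -0.07 on slide 2. The difference between the slides was 0.78 with an unadjusted interaction p of 0.04 and an adjusted p of 0.999. The 2 control arrays near the Irf2_AhcKO level were those whose scanner names mention Ah-Cre. They were also the only control arrays of slide 2, so scanner name and slide cannot be told apart. The part of either in the result was not tested.

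Tnfrsf19, also called Troy, is a receptor that is itself a Wnt target and marks crypt base cells. It had log2 signals of 2.04, 1.99, 2.49 and 1.81 in Irf2_AhcKO and of 1.01, 1.73, 2.06 and 1.29 in control, and is given array by array because its difference was the highest of the 34, a choice made after the values were seen. Each Irf2_AhcKO array stood above control replicates 1, 2 and 4, and control replicate 3 lay among them. This made a log2 difference of 0.56 (95% interval -0.02 to 1.14, adjusted p = 0.434). Slide 1 gave 0.64 and slide 2 gave 0.47. A second, dimmer Tnfrsf19 probe differed by 0.20.

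The other regulators lay closer to control. Smoc2, a secreted matrix protein of the signature, averaged 3.28 ± 0.11 in Irf2_AhcKO and 3.43 ± 0.12 in control (SD, n = 4 each), a log2 difference of -0.15. Sox9, a Wnt-driven transcription factor of the crypt base, differed by -0.22 and Cdca7, a cell cycle associated gene, by -0.04. The difference was 0.02 for the RNA-binding protein Msi1, 0.07 for Mex3a, another RNA-binding protein, and 0.01 for Prom1, a membrane protein of apical protrusions. Msi1 varied least of these in Irf2_AhcKO, at 1.41 ± 0.02, against 1.40 ± 0.11 in control. Sox9 lay between 2.80 and 3.11 in Irf2_AhcKO and between 2.99 and 3.61 in control, and the control value of 3.61 came from replicate 3. Cdca7 ranged from 4.49 to 4.79 in Irf2_AhcKO, against 4.51 to 4.76 in control. Prom1 ranged from 4.28 to 4.90 in Irf2_AhcKO, against 4.43 to 4.75 in control, with the higher values of both groups on slide 2.

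**Figure D2:**
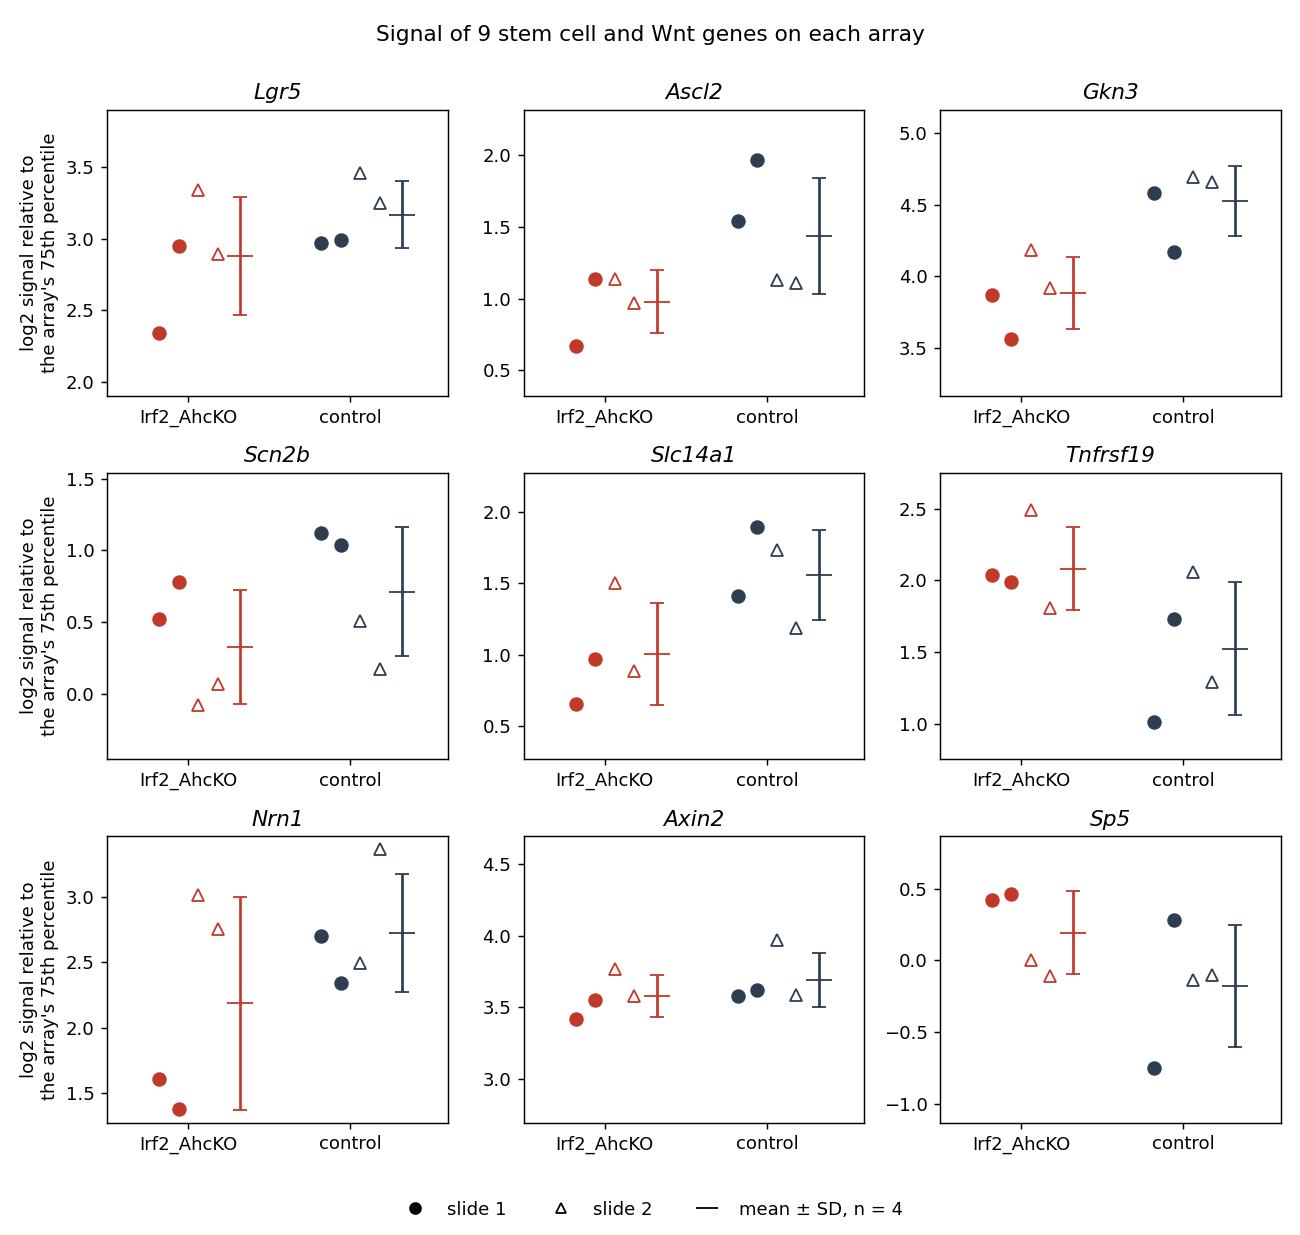
Log2 signal (y axis, the array's 75th percentile subtracted) of 9 genes on each array, Irf2_AhcKO left of control, filled circles for slide 1 and open triangles for slide 2, with bars for the mean and SD of 4 arrays. Gkn3 has the least overlap, with 4.18 on the highest Irf2_AhcKO array against 4.17 on the lowest control array, and Ascl2 and Nrn1 differ between the groups mainly on slide 1.

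The surface proteins, channels and transporters of the signature were all measured, 8 of 8, with 3 positive and 5 negative differences. Scn2b, a β subunit of voltage-gated sodium channels, had log2 signals of 0.52, 0.78, -0.08 and 0.07 in Irf2_AhcKO, against 1.12, 1.04, 0.51 and 0.17 in control. Within each slide both Irf2_AhcKO arrays lay below both control arrays, and the groups overlapped only across slides. For Scn2b the log2 difference was -0.39 (SE 0.11, 95% interval -0.64 to -0.13, unadjusted p = 0.00854, adjusted p = 0.292). Slide 1 gave -0.43 and slide 2 gave -0.34.

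Slc14a1, a urea transporter, had log2 signals of 0.66, 0.97, 1.5 and 0.89 in Irf2_AhcKO, against 1.41, 1.89, 1.73 and 1.19 in control. Irf2_AhcKO replicate 3 lay among the control values and the other 3 Irf2_AhcKO arrays below all of them. For Slc14a1 the log2 difference was -0.55 (SE 0.22, 95% interval -1.08 to -0.03, unadjusted p = 0.0415, adjusted p = 0.413). Slide 1 gave -0.84 and slide 2 gave -0.27.

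Nrn1, a small lipid-anchored surface protein, had log2 signals of 1.61, 1.38, 3.01 and 2.75 in Irf2_AhcKO, against 2.70, 2.34, 2.49 and 3.36 in control, chosen for display after its values were seen. The 2 Irf2_AhcKO arrays of slide 1 stood below all others, and those of slide 2 lay among the controls. The log2 difference was -0.53 (SE 0.27, adjusted p = 0.473), from -1.03 on slide 1 and -0.04 on slide 2.

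The remaining membrane proteins differed little. Slc12a2, the sodium, potassium and chloride cotransporter of secretory epithelia, averaged 5.77 ± 0.12 in Irf2_AhcKO and 5.78 ± 0.11 in control (SD, n = 4 each). The difference was -0.05 for the water channel Aqp4, 0.06 for Clca3b of the chloride channel accessory family, 0.09 for Rgmb, a co-receptor of bone morphogenetic proteins, and 0.15 for Lrig1, which restrains ErbB receptors. None had an unadjusted p below 0.05 on the probe used. Second, dimmer probes gave 0.04 for Aqp4 and -0.03 for Lrig1, each opposite in sign to the probe used. Lrig1 lay between 3.02 and 3.47 in Irf2_AhcKO and between 2.87 and 3.48 in control. Aqp4 lay between 2.35 and 2.92 in Irf2_AhcKO and between 2.43 and 2.80 in control, and in each group the lower values were on slide 2.

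Of the secreted proteins and growth control genes all 5 were measured, with 2 positive and 3 negative differences. Gkn3, a gastrokine family member known from gastric mucosa and listed among Lgr5 signature genes, had log2 signals of 3.87, 3.56, 4.18 and 3.92 in Irf2_AhcKO, against 4.58, 4.17, 4.69 and 4.66 in control. The groups overlapped by 0.01 only, between Irf2_AhcKO replicate 3 and control replicate 2, which lay on different slides. The log2 difference was -0.64 (SE 0.12, 95% interval -0.94 to -0.35), which is 0.641 times the control level, with an unadjusted p of 0.00125 and a limma adjusted p of 0.163. It was -0.66 on slide 1 and -0.62 on slide 2, both between arrays of the same slide. With normexp background correction in place of the scanner's processed signal it was -0.62 and passed, with an adjusted p of 0.0372. Over the 20 alternative settings its adjusted p ranged from 0.0372 to 0.887. The enterocyte markers were lower in the same arrays, and their part in this value was not tested.

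The other 4 genes of that group lay within 0.05 of control on the log2 scale. They were Igfbp4, an insulin-like growth factor binding protein, at -0.02, the follistatin-like glycoprotein Fstl1 at 0.02, the growth factor Pdgfa at 0.05 and Cdk6, a cyclin D partner of the G1 phase, at -0.05. Fstl1 ranged from 2.25 to 3.07 in Irf2_AhcKO, against 2.39 to 2.70 in control, and Pdgfa from 1.5 to 2.44, against 1.61 to 2.25 in control. Cdk6 lay between -0.83 and -0.10 in Irf2_AhcKO and between -0.87 and 0.08 in control, with the higher values of both groups on slide 2.

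Of the 7 negative feedback genes of the Wnt pathway, 5 were measured, 2 with a positive and 3 with a negative difference, and none passed. Axin2, a scaffold of the β-catenin destruction complex and a widely used readout of Wnt activity, had log2 signals of 3.42, 3.55, 3.77 and 3.58 in Irf2_AhcKO, against 3.58, 3.62, 3.97 and 3.59 in control. The groups overlapped, and control replicate 3 was the highest array. The log2 difference was -0.11 (SE 0.11, 95% interval -0.36 to 0.14, adjusted p = 0.682), and a second Axin2 probe gave -0.12.

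The ubiquitin ligases that remove Frizzled receptors had a log2 difference of 0.08 (95% interval -0.10 to 0.27) for Rnf43 and 0.01 (-0.34 to 0.36) for Znrf3. Notum, an enzyme that strips the lipid from Wnt ligands, averaged 1.81 ± 0.27 in Irf2_AhcKO and 1.83 ± 0.30 in control (SD, n = 4 each), and its difference of -0.02 had an interval of -0.18 to 0.13. Nkd1, which binds Dishevelled, gave probes that disagreed, with -0.24 on the probe used and 0.85 on a dimmer one that was above background on 4 Irf2_AhcKO and 3 control arrays. Both extracellular or membrane inhibitors Apcdd1 and Wif1 were not well above background on any array.

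Of the 5 nuclear effectors and targets, 4 were measured, 1 with a positive and 3 with a negative difference. Sp5, a transcription factor that responds directly to Wnt, had log2 signals of 0.42, 0.46, 0.00 and -0.11 in Irf2_AhcKO, against -0.75, 0.28, -0.14 and -0.10 in control. Control replicate 1 stood far below the rest, and the slide 2 arrays of both groups lay together. For Sp5 the log2 difference was 0.37 (SE 0.23, 95% interval -0.18 to 0.92, adjusted p = 0.544). Slide 1 gave 0.67 and slide 2 gave 0.07, and the value was between 0.11 and 0.52 when single arrays were left out.

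The difference was -0.09 for Myc and -0.16 for Ccnd1, growth and cell cycle genes often described as β-catenin targets, and -0.12 for Tcf7, a TCF family factor. Myc lay between 2.18 and 2.89 in Irf2_AhcKO and between 2.39 and 3.36 in control, and 3.36, on control replicate 3, stood apart from the other controls. Ccnd1 lay between 2.84 and 3.25 in Irf2_AhcKO and between 2.78 and 3.46 in control. Lef1, the other TCF family factor of the group, was above background on 2 control arrays and no Irf2_AhcKO array with one probe and on no array with the other. No difference was taken from it.

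The 3 surface receptors that mark Wnt-dependent crypt cells were all measured, 1 with a positive and 2 with a negative difference, and none passed. Cd44, a hyaluronan receptor, differed by 0.07 on the probe used, and its 4 probes all gave values between 0.07 and 0.18. The difference was -0.02 for Ephb2 and -0.04 for Ephb3, receptors that position cells along the crypt. Ephb3 had the narrowest range, with 9.14 to 9.21 in Irf2_AhcKO against 9.20 to 9.24 in control, and between 0.048% and 0.074% of the probes on each array were as bright as its probe or brighter.

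Promoter sequences were looked up for the same genes in a RefSeq table of build GRCm38.p6, which gives 250 bases before to 50 bases after a gene's start. It had entries for 25 of the 38 genes, with 35 promoters. The TCF/LEF motif CTTTGAT was searched on both strands. It was in 2 of the 35 promoters, those of Sp5 and Tnfrsf19, and in 3.73% of the 32851 promoters of the table. The shorter core CTTTGA, which is part of that motif, was found in 5 of the 35 promoters, those of Sp5, Lef1, Prom1, Scn2b and Tnfrsf19, and in 16.0% of all. The interferon response motif GAAANNGAAA, of the kind IRF2 binds, was in none of the 35 and in 3.44% of all. Promoters of the 2 genes with the longer motif and of the 2 with the lowest p, Gkn3 and Scn2b, are shown. For Tnfrsf19 the promoter was picked because it holds the motif, and any entry of that gene without the core is left out. Sequences run 5′ to 3′ on the gene's own strand, with capitals marking the core or the longer motif on either strand.
Sp5, chr2:70474673-70474972, plus strand: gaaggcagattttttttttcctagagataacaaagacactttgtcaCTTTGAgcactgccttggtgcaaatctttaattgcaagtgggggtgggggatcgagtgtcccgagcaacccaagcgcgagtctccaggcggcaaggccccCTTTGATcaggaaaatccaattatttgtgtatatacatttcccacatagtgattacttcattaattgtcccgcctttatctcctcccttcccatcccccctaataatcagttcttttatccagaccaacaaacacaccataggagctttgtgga
Tnfrsf19, chr14:61037938-61038237, minus strand: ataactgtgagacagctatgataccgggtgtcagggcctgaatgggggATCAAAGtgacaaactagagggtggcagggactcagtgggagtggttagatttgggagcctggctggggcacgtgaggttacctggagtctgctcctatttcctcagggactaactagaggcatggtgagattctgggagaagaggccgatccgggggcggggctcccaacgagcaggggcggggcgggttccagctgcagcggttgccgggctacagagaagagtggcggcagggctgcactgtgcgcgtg
Gkn3, chr6:87388886-87389185, minus strand: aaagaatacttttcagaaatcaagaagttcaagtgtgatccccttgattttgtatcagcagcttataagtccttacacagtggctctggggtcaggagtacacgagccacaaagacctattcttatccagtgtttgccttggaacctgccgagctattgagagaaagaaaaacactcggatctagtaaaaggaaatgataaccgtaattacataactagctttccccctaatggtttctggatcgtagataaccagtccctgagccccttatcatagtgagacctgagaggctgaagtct
Scn2b, chr9:45117626-45117925, plus strand: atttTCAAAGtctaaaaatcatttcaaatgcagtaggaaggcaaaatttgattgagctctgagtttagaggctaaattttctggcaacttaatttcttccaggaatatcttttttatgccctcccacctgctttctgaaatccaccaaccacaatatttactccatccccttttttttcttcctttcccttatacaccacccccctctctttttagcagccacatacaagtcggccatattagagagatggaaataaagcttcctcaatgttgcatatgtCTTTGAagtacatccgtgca
In Sp5 the longer motif begins at position -104 relative to the start and a second core at -204. In the Tnfrsf19 promoter shown, the longer motif lies on the opposite strand at -202, and in Scn2b cores lie at -246 and 31. Gkn3 has none of the 3 motifs in this window. These matches describe letters in a window and show no binding.

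Each slide held both groups, so slide differences were estimated apart from genotype. Between slide 2 and slide 1, 11 of the 34 genes passed the adjusted threshold, 5 higher and 6 lower on slide 2, against 35.5% of all features (12% higher and 23.5% lower), so the share of these genes was near that of all features. Znrf3 was the furthest below slide 1, with a log2 difference of -0.95 (limma adjusted p = 0.00329). The slide difference was -0.70 for Scn2b, -0.49 for both Rnf43 and Notum, -0.35 for Ccnd1 and -0.31 for Aqp4. Nrn1 was higher on slide 2 by 0.89, Cdk6 by 0.64, Cd44 by 0.41, Prom1 by 0.39 and Igfbp4 by 0.27. For Znrf3 the log2 signals were -0.97, -1.02, -1.46 and -1.90 in Irf2_AhcKO, against -0.68, -0.81, -1.95 and -1.97 in control, so that both groups were lower on slide 2. The genotype difference kept its sign on both slides in 24 of the 34 genes, against 62.2% of all features. No gene's genotype difference itself differed between the slides past the adjusted threshold in limma, among the 34 or among all features (0%). At an unadjusted p below 0.05 this was so for Ascl2 alone among the 34 and for 4.29% of all features.

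**Figure D3:**
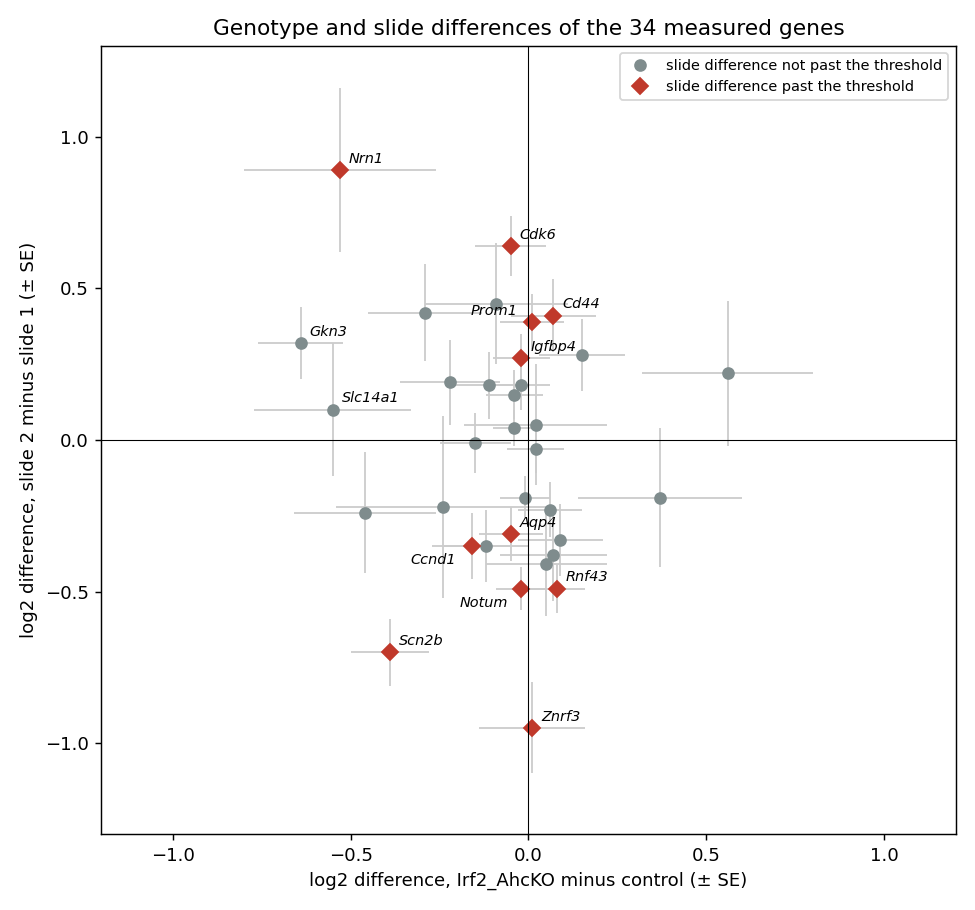
Log2 difference between Irf2_AhcKO and control (x axis, Irf2_AhcKO minus control) against that between slide 2 and slide 1 (y axis, slide 2 minus slide 1) for the 34 measured genes, with bars for the SE. Red diamonds mark the 11 genes whose slide difference passed the threshold, among them Znrf3 at -0.95 and Nrn1 at 0.89, and named grey points are Gkn3 and Slc14a1.

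The rest of the Wnt pathway was read from a list of 77 further genes, of which 57 were measured, 26 with a positive and 31 with a negative difference, and none passed. An unadjusted p below 0.05 was found for 2 that were higher and 4 that were lower. By that rule 5.98% of all features were higher and 5.74% lower, together 11.7%. In 3 (Sfrp5, Nkd2 and Lrp5) the groups did not overlap, against 3.85% of all features. The median log2 difference was -0.01. By role, the 13 measured cytoplasmic components, such as the destruction complex, had a median of -0.01, the 13 Wnt ligands 0.00, the 12 receptors -0.13 and the 10 nuclear effectors 0.11. β-catenin itself, Ctnnb1, differed by -0.10 (SE 0.07). None of the 4 R-spondin ligands was measured.

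Of 11 extracellular Wnt inhibitors listed, 5 were measured, all with a negative difference (median -0.43). That sign was shared by 50.5% of all features and by 8356 of the 15110 with a symbol. The 5 inhibitors included Sfrp4 at -0.01, and Dkk4 and Kremen2, which were not above background on every array. Sfrp5, a secreted Frizzled-related protein that binds Wnt ligands, had the largest. Its log2 signals were 1.47, 1.18, 2.05 and 1.63 in Irf2_AhcKO, against 3.86, 3.48, 3.38 and 2.61 in control, so every Irf2_AhcKO array lay below every control array. The log2 difference was -1.75 (SE 0.30, 95% interval -2.46 to -1.05), which is 0.297 times the control level, with an unadjusted p of 0.000582 and a limma adjusted p of 0.125. It was -2.35 on slide 1 and -1.15 on slide 2, and with normexp background correction it was -1.65 and passed at an adjusted p of 0.0215. Sfrp5 rested on 1 probe. Control replicate 1, its highest array, was also the array with the high Col3a1 value, and without it the difference was -1.56. The mean of the measured mesenchymal markers was -3.42 to -3.19 on the Irf2_AhcKO arrays and -3.44 to -3.09 on the other 3 control arrays. Only 1 of these markers was well above background on all 8 arrays. The parts of mesenchymal RNA and of the lower enterocyte list of Irf2_AhcKO in the Sfrp5 difference were not tested.

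Kremen1, a co-receptor for Dickkopf inhibitors, had log2 signals of -0.82, -0.56, -1.36 and -1.83 in Irf2_AhcKO, against -0.38, -0.24, -1.11 and -1.12 in control, a log2 difference of -0.43 (SE 0.12, adjusted p = 0.307). On each slide both Irf2_AhcKO arrays lay below both control arrays. Wls, the carrier that brings Wnt ligands to the cell surface, had 1.43, 1.61, 1.32 and 1.21 in Irf2_AhcKO, against 1.85, 1.86, 1.66 and 1.49 in control, a difference of -0.32 (SE 0.08, adjusted p = 0.268). Here too both slides gave the same order.

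Nkd2, like Nkd1 a Dishevelled-binding inhibitor, had 2.73, 2.91, 2.72 and 2.75 in Irf2_AhcKO, against 2.31, 2.27, 2.48 and 2.62 in control, a difference of 0.36 (SE 0.10, adjusted p = 0.292) without overlap. Tcf7l2, the main TCF factor of the intestinal epithelium, had 3.43, 3.25, 2.81 and 2.84 in Irf2_AhcKO, against 3.03, 2.99, 2.76 and 2.73 in control, a difference of 0.21 (SE 0.09, adjusted p = 0.423) with most of it on slide 1. The ligand Wnt2b had -3.15, -2.83, -1.94 and -1.44 in Irf2_AhcKO, against -1.25, -1.79, -1.17 and -1.86 in control, a difference of -0.82 (SE 0.32, adjusted p = 0.401). It came to -1.47 on slide 1 and -0.17 on slide 2, and the lowest 2 of the 8 values were the Irf2_AhcKO arrays of slide 1.

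**Figure D4:**
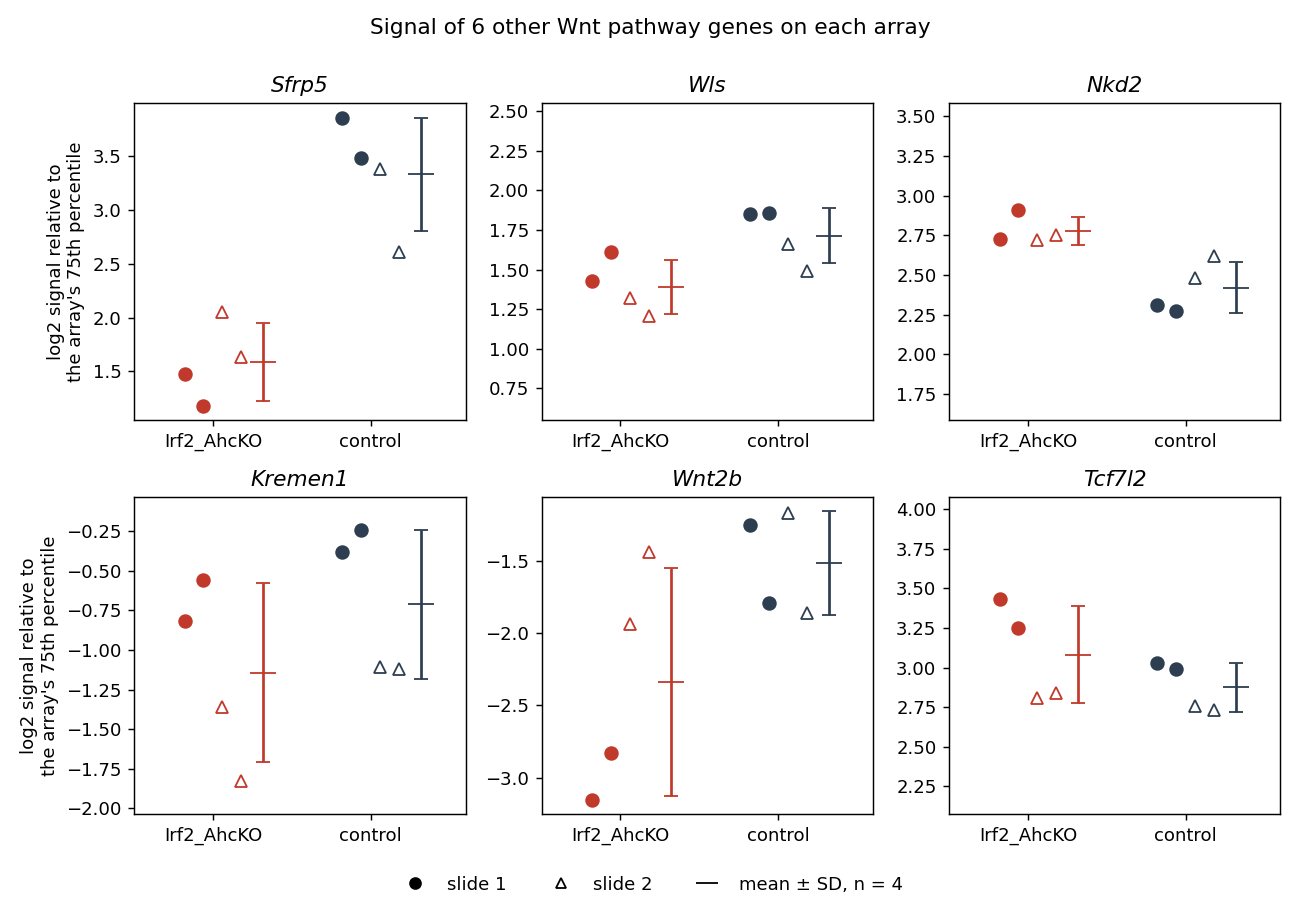
Log2 signal (y axis, the array's 75th percentile subtracted) of the 6 further Wnt pathway genes with the lowest p, Irf2_AhcKO left of control, filled circles for slide 1 and open triangles for slide 2, with bars for the mean and SD of 4 arrays. Sfrp5 lies between 1.18 and 2.05 in Irf2_AhcKO and between 2.61 and 3.86 in control, and none of the 6 passed the adjusted threshold.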

How the data were processed

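RNA of sorted Lgr5-high cells was extracted, amplified and labelled with Cy3, per the labels' protocols. Agilent Feature Extraction 11.5.1.1 read each array, per the submitters' processing notes and the file headers. The deposited scanner files give a background-subtracted and detrended intensity for 62976 spots per array. The authors' deposited value table holds the same intensity on a linear scale, uncentred, multiplied by 1 constant per array (6.41 to 6.90, basis not given in the sources used here), with column medians of 207 to 246.

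From these, the log2 intensity was computed and, array by array, the 75th percentile of the spots other than controls was subtracted. Outlier spots (141 to 214 per array) were left out of a probe's mean where the probe had another spot. Where it had none they were kept, and they also counted towards the 75th percentile. The 55681 probes were named through their accessions and a RefSeq table of assembly GRCm38.p6, giving 28331 with a gene, 0 with several and 27350 without one, which were collapsed by the files' own identifier. The array was annotated on mm9, so no coordinates are given for genes or probes, and those of promoters are the RefSeq table's own. Probes well above background on at least 4 of 8 arrays were kept, with 1 probe per gene, that of highest mean. This left 25403 features, 15110 with a symbol. The comparison was fitted in R 4.3.3 with limma 3.58.1 (lmFit, eBayes, terms for group and slide, two-sided, Benjamini-Hochberg adjustment over all features, threshold 0.05). The fit was also run on data simulated with its own variances and independent noise, which cannot test those assumptions. Precision is limited by the number of arrays.

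The numbers of the replicates pair the samples by the rule used here. The deviations of same-numbered arrays from the means of their groups correlated across features at 0.459, 0.491, 0.518 and 0.533. After slide means were removed as well, the correlation was 0.046 (replicates 1 and 2) and 0.214 (replicates 3 and 4). The labels name separate mice and no shared litter or day. Within a group and slide, 2 arrays correlated at 0.986 to 0.988, and no arrays held identical values.

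The member genes, the other Wnt genes and the marker lists were chosen with earlier results of these data known. Array values are given for Lgr5, Ascl2, Axin2, Sp5, members with an unadjusted p below 0.05 or without overlap, and the 6 other Wnt genes of lowest p. Genes chosen after their values were seen are named as such, and Lrp5, Ctnnb1, Znrf3 and the second probes belong to them too. The normexp alternative used the median spot signal, since no mean signal column was in the files used here, with an offset of 50. Other alternatives changed the scaling, the filter, the probe rule, the slide term, the arrays or the table.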

Additional observations from a re-analysis of the deposited data

Results flagged for a closer look

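In 2 of the 68 gene and group combinations tested, 1 array stood far from the other 3 of its group, where chance gives about 1 in 20. Both were control replicate 3, on slide 2. Axin2 had a log2 signal of 3.97 there, against 3.58 to 3.62 on the other control arrays, and without that array its difference between Irf2_AhcKO and control was -0.03 in place of -0.11. Myc had 3.36 there, against 2.39 to 2.53, and without that array its difference was 0.09 in place of -0.09. Some other genes were highest among the controls on that array too, while others, such as Ascl2, Scn2b, Slc14a1 and Nrn1, were not. Of the former, 5 chosen after their values were seen are given here. Without control replicate 3 the difference was -0.10 for Sox9, 0.04 for Nkd1, -0.25 for Lgr5, 0.73 for Tnfrsf19 and -0.64 for Gkn3, in place of -0.22, -0.24, -0.29, 0.56 and -0.64. None of these genes passed the threshold with or without it. Control replicate 3 is one of the 2 control arrays whose scanner names mention Ah-Cre.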

How the results depend on the processing

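Over 20 alternatives, of which leaving out both control arrays of slide 2 was added after seeing the data, no member gene passed the threshold except under normexp background correction, where 1 did (Gkn3), and no other Wnt gene passed except under the same correction, where 1 did (Sfrp5). The count of all features past the threshold, 25, was less stable. It was 133 with normexp, 46 when probes had to be above background on all arrays, 7 with no filter, and 0 on slide 1 alone, on slide 2 alone, with the replicate block in place of the slide and without both control arrays of slide 2. With the replicate block, 0 members passed in limma, while 3292 features and 4 members had an unadjusted p below 0.05. Leaving out single arrays gave 0 to 25 features. It was 0 without Irf2_AhcKO replicate 1 or 2 or control replicate 2, 1 without Irf2_AhcKO replicate 3, 3 without Irf2_AhcKO replicate 4, 11 without control replicate 1, 6 without control replicate 3 and 25 without control replicate 4. The members' median difference stayed between -0.06 and 0.00. The sign of the difference was kept in every alternative by 15 of the 34 members, and by 28 to 34 in any 1 setting. Gkn3 ranged from -0.72 to -0.56, with an unadjusted p below 0.05 in all 20, Scn2b from -0.46 to -0.29 (18 of 20), Slc14a1 from -0.84 to -0.27 (12 of 20), Ascl2 from -0.85 to -0.07 and Lgr5 from -0.40 to -0.16. The slide difference was passed by 11 members, and by 16 with normexp. The causes of these shifts were not tested.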
